A study of Rattus norvegicus with 93 samples.

Results

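DNA repair genes were followed in the bone marrow of rats given topotecan, oxaliplatin or both drugs in sequence. The genes were those whose array annotation gives a single symbol that names a Fanconi anaemia protein, an XRCC, RAD, ERCC, MSH, MLH or BRCA family member, Xpa or Xpc, DNA ligase 1, 3 or 4, or one of Prkdc, Parp1, Parp2, Atm, Atr, Tdp1, Tdp2, Blm and Exo1. The table holds 43 such probe sets for 38 genes, out of 12532 probe sets and 7810 genes with a single symbol. Where a gene has several, the brightest one on average across the 93 arrays stands for it. The 38 genes fall into pathways of unequal size, with 4 in the Fanconi anaemia pathway, 10 in homologous recombination, 5 in non-homologous end joining, 3 in mismatch repair, 3 in nucleotide excision repair and 7 in the repair of single-strand breaks and topoisomerase adducts. The remaining 6 are Rad1 and Rad17 of damage signalling, Rad18 of post-replication repair, and Ercc6l, Ercc6l2 and Rad21, which also match the symbols. These last genes are placed apart here and were left out of the pathway counts, whatever part they may have in repair. Other repair genes, among them Atm, Atr, Xpc and Ercc1, were not analysed here.

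Left femur marrow came from male Sprague-Dawley rats aged 8 weeks, with 1 array for each animal, and was taken 1, 6 or 24 h after the last infusion. Every rat received a pair of intravenous infusions of 30 min each with a pause between them, so all rats, controls included, were infused. Topotecan at 4.7 mg/kg, formulated in saline (NaCl), and oxaliplatin at 15 mg/kg, formulated in 5% dextrose in water (D5W), were given singly or in sequence, and group names give the infusions in their order. Drugs were given before the other drug's vehicle in topotecan/D5W and oxaliplatin/NaCl, after it in D5W/topotecan and NaCl/oxaliplatin, and together with the other drug in topotecan/oxaliplatin and in oxaliplatin/topotecan. The vehicle groups were NaCl/D5W and D5W/NaCl. Groups held 4 rats at each time. The exceptions, with 3, were the 24 h groups D5W/NaCl and topotecan/D5W, and the 6 h group oxaliplatin/NaCl, from which the authors had removed an outlying array. A drug given first had been in the rat for longer when the marrow was taken, so the order of infusion and the time since the drug cannot be told apart. Whole marrow was measured, and a lower signal from fewer cells of a type cannot be told apart from less RNA per cell. The labels also carry code numbers of unstated meaning, which are shared by the vehicles, topotecan/D5W and oxaliplatin/NaCl. At 1 and 6 h D5W/topotecan, NaCl/oxaliplatin and both combinations share no code with these groups, and at 24 h D5W/topotecan and oxaliplatin/topotecan share none with D5W/NaCl. In those comparisons with vehicle, in both direct comparisons of single drugs at every time, in those of oxaliplatin/topotecan with oxaliplatin/NaCl at every time and in those of topotecan/oxaliplatin with topotecan/D5W at 1 and 6 h, code and treatment cannot be told apart.

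Cells remove topoisomerase I trapped on DNA by topotecan with tyrosyl-DNA phosphodiesterase, poly(ADP-ribose) polymerase and the single-strand break ligases, and they repair the replication forks that break at the trapped enzyme by homologous recombination. Platinum adducts on a single strand are cut out by nucleotide excision repair, and cross-links between the strands are unhooked by the Fanconi anaemia pathway and then passed to recombination. Non-homologous end joining rejoins broken ends at any stage of the cell cycle, whereas recombination and mismatch repair work mainly in cells that copy their DNA. Bone marrow holds many dividing precursor cells and is a known site of toxicity of both drugs.

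Many cell cycle genes are transcribed through E2F sites and through CCAAT boxes, which NF-Y binds, and the promoters of the repair genes were searched for both. RefSeq promoter sequence (build GRCr8, 250 bases before the transcription start to 50 after it) was found for 33 of the 38 genes, but not for Prkdc, Xrcc2, Rad21, Xpa and Blm. The stretches below hold matches and lie beside genes whose values are given later. Each is printed 5' to 3' on the gene's own strand, in lower case with the matches in capitals, where TTTCCCGC is an E2F site and CCAAT or its reverse complement ATTGG is a CCAAT box.
Msh6, chr6:12333503-12333692, minus strand, from upstream into the first transcribed bases: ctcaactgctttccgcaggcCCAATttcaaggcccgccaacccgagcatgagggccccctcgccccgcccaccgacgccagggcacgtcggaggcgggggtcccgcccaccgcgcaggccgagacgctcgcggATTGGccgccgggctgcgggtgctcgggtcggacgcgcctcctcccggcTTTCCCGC
Exo1, chr13:90341847-90341898, plus strand, upstream of the start: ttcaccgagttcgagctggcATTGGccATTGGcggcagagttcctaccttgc
Rad54l, chr5:134841838-134841882, minus strand, upstream of the start: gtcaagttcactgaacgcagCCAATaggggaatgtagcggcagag
Fanca, chr19:68271034-68271105, minus strand, upstream of the start: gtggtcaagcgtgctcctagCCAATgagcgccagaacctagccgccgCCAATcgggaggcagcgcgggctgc

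Searched on both strands, TTTCCCGC occurred in 3 of the 33 promoters (9.09%), those of Fancd2, Fancl and Msh6, and in 2.27% of the 6553 promoters of genes on the array. The other E2F form searched, TTTGGCGC, was in 0 of the 33 and in 0.977% of all. A CCAAT box was in 14 of the 33 (42.4%), against 38.7% of all. Among 35 promoters of mitosis and replication genes the 3 shares were 11.4%, 17.1% and 80%. In these windows, then, the share of repair promoters with a CCAAT box lay close to that of the whole array. These matches are letters in a window and were not tested as binding sites.

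Signals are on the log2 scale of the authors' RMA, on which a difference of 1 is a 2-fold change. A gene is called lower or higher at a limma adjusted p under 0.01, over all 12532 probe sets of the comparison and without a minimum fold. The control of each treatment was the vehicle group with the same order of infusates, and the treatments of one order share those vehicle rats. Over 6 treatments and 3 times, 388 of the 684 comparisons of the 38 genes with vehicle were called, 383 of them lower and 5 higher. Standard errors ran from 0.07 to 0.27 with a median of 0.12. Of the 388 calls, 59 were lost when at least 1 rat was left out, and they are marked where the text turns on them.

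At 1 h, repair genes were lower with topotecan, while oxaliplatin alone gave no call. With topotecan/D5W 19 of 38 were lower and 1 higher, against 26.0% lower and 9.18% higher of all probe sets. With D5W/topotecan 11 were lower and 1 higher, against 19.5% and 7.67%. The combinations gave 23 lower and 0 higher for topotecan/oxaliplatin (32.9% and 9.77% of all) and 18 lower and 1 higher for oxaliplatin/topotecan (27.6% and 7.21% of all). The median change of the 38 genes was -0.35, -0.22, -0.49 and -0.38 in this order of treatments, beside -0.09, -0.04, -0.14 and -0.13 for all probe sets. For oxaliplatin/NaCl limma called 0 of 38 at 1 h, with 10 at an unadjusted p under 0.05, where 0.654% of all probe sets were lower and 0.575% higher. For NaCl/oxaliplatin it called 0 with 4 at an unadjusted p under 0.05, beside 0.0239% lower and 0.136% higher.

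These counts at 1 h moved with the scaling. A second quantile normalization, which puts all arrays on the same distribution, raised the median change of all probe sets at 1 h by 0.10 with topotecan/D5W, 0.07 with D5W/topotecan, 0.16 with topotecan/oxaliplatin and 0.15 with oxaliplatin/topotecan. Relative to that shifted centre the repair genes were 18 lower and 3 higher, 11 lower and 4 higher, 17 lower and 0 higher, and 12 lower and 3 higher. The higher genes were Fancb, Lig4 and Msh6 with topotecan/D5W and Fancb, Xrcc6, Msh6 and Tdp2 with D5W/topotecan. With oxaliplatin/topotecan they were Rad51ap1, Msh6 and Tdp2. Of all calls of the array, the share that was lower went from 73.9% to 56.3%, from 71.7% to 57.8%, from 77.1% to 55.8% and from 79.3% to 55.9%. The median of the 38 genes stayed below 0 in these 4 treatments, at -0.24, -0.11, -0.32 and -0.16, whereas in NaCl/oxaliplatin it went from -0.01 to 0.04. At 6 and 24 h the same normalization moved the median of all probe sets by at most 0.08.

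At 6 h most repair genes were lower with any treatment that held topotecan. The counts were 30 lower and 0 higher with topotecan/D5W (25.6% and 15.1% of all probe sets), 29 lower and 1 higher with D5W/topotecan (20.4% and 14.1%), 32 lower and 1 higher with topotecan/oxaliplatin (27.6% and 17.0%) and 33 lower and 0 higher with oxaliplatin/topotecan (27.5% and 14.2%). As a share of the 38 genes the lower calls made up 78.9%, 76.3%, 84.2% and 86.8%. Oxaliplatin alone gave 15 lower and 0 higher as oxaliplatin/NaCl (7.25% and 3.78% of all) and 12 lower and 0 higher as NaCl/oxaliplatin (9.69% and 5.54%). The 15 of oxaliplatin/NaCl fell to 7 without 1 of its 3 rats, animal 39, as the calls of Fancd2, Fancl, Blm, Prkdc, Msh3, Msh6, Rad18 and Rad21 were lost. Median changes were -0.71, -0.68, -0.78 and -0.75 in the treatments with topotecan and -0.39 and -0.30 with oxaliplatin alone, and the median of all probe sets lay between -0.09 and 0.02. One array of topotecan/oxaliplatin at 6 h, animal 52, carried a high signal of skeletal muscle genes (list mean 10.05), and without it the count stayed at 33.

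At 24 h more repair genes were called lower with oxaliplatin alone than with topotecan alone. Oxaliplatin alone gave 29 lower genes as oxaliplatin/NaCl (26.4% of all probe sets lower, 19.6% higher) and 32 as NaCl/oxaliplatin (30.2% and 24.9%), with 0 higher in each. Topotecan alone gave 17 lower as topotecan/D5W (17.3% and 16.1%) and 19 as D5W/topotecan (18.3% and 18.1%), again with 0 higher. With each rat left out in turn, topotecan/D5W gave 13 to 23 calls (23 without animal 35) and D5W/topotecan 16 to 20. Oxaliplatin/NaCl then gave 23 to 27 (23 without vehicle animal 18) and NaCl/oxaliplatin 31 to 32. The combinations gave 33 lower as topotecan/oxaliplatin (35.2% and 25.9%) and 31 as oxaliplatin/topotecan (33.3% and 21.8%), with 0 higher. Median changes were -0.61 and -0.72 with oxaliplatin alone, -0.40 and -0.44 with topotecan alone, and -0.74 and -0.89 with both drugs, while the median of all probe sets lay between -0.11 and 0.03. More than 2-fold lower were 14 and 16 genes with the combinations, 10 and 7 with oxaliplatin alone and 2 and 5 with topotecan alone. The share of all probe sets over 2-fold was not counted, so these numbers have no array value beside them. Arrays of animals 41 and 42 of oxaliplatin/NaCl at 24 h carried a high skeletal muscle signal (list means 9.08 and 9.03), and without them 23 genes were called in place of 29, with 2 rats left in that group. The direct tests between drugs are given further on.

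**Figure D1:**
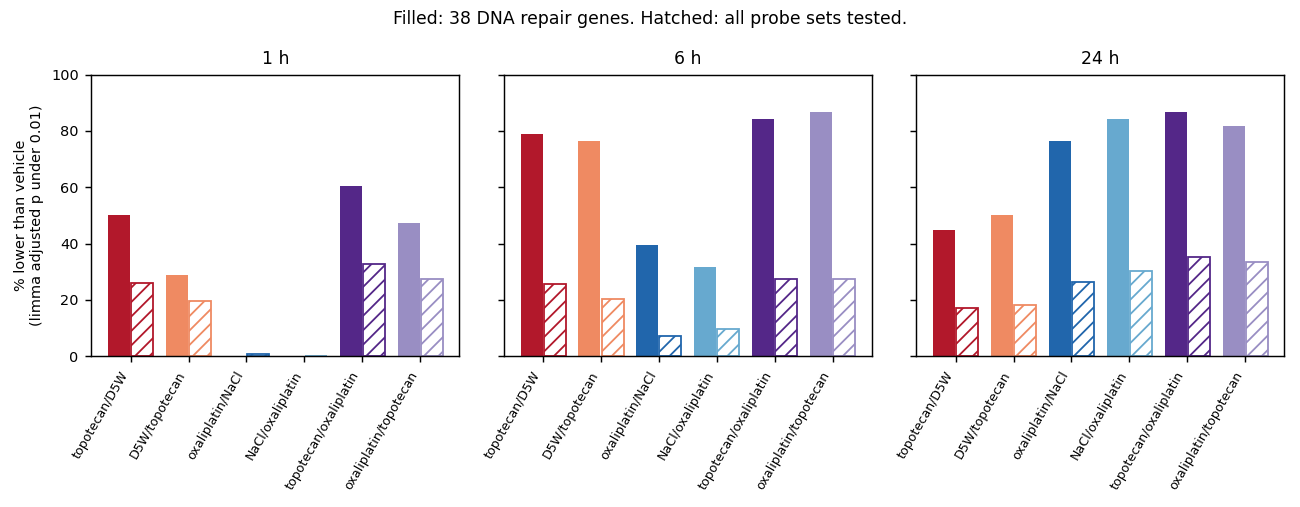
Share of genes called lower than vehicle (limma adjusted p under 0.01) at 1, 6 and 24 h, in percent, for each treatment, with filled bars for the 38 DNA repair genes and hatched bars for all 12532 probe sets. At 6 h the filled bars of the 4 treatments with topotecan reach 76.3 to 86.8%, and at 24 h the bars of oxaliplatin alone (76.3 and 84.2%) stand above those of topotecan alone (44.7 and 50%).

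**Figure D2:**
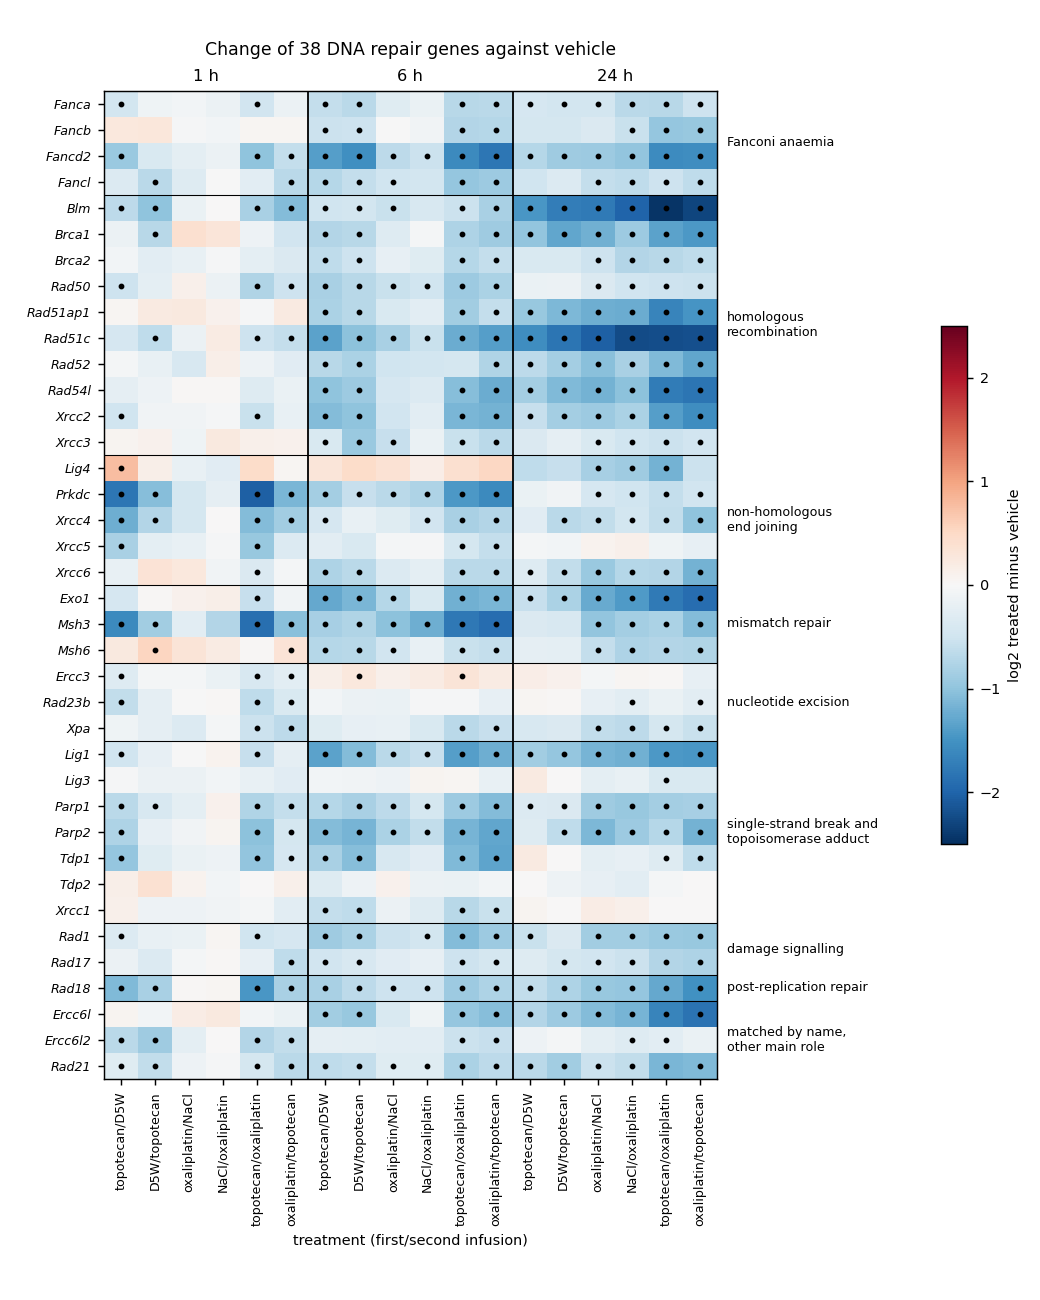
Log2 change of each of the 38 genes (rows, grouped by pathway) against its vehicle group in the 6 treatments (columns) at 1, 6 and 24 h, with blue for lower, red for higher and a black dot for a limma adjusted p under 0.01. Lower values fill most rows of homologous recombination at 24 h, whereas the rows of Tdp2 and Lig3 hold 0 and 1 dots, and at 1 h the lowest values are those of Prkdc and Msh3.

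Homologous recombination copies an intact sister strand into a break. Its 10 genes were called lower in 13 of 60 gene and treatment pairs at 1 h, 45 at 6 h and 54 at 24 h, with 0 higher. With topotecan, 19.5 to 32.9% of all probe sets were lower at 1 h and 20.4 to 27.6% at 6 h. At 24 h the range with topotecan was 17.3 to 35.2%. With oxaliplatin alone the shares were at most 0.654%, 9.69% and 30.2% at the 3 times. The 13 pairs at 1 h were all with topotecan, 32.5% of those 40, within the range of all probe sets. With topotecan 39 of 40 pairs were lower at 6 h and 34 of 40 at 24 h, and with oxaliplatin alone 6 of 20 at 6 h and 20 of 20 at 24 h. The pathway's median change at 24 h ran from -1.45 to -0.75 over the treatments. At 24 h Blm, Brca1, Rad51ap1, Rad51c, Rad52, Rad54l and Xrcc2 were lower in all 6 treatments, and Brca2, Rad50 (by the probe set used here) and Xrcc3 in the 4 that held oxaliplatin, by 0.36 to 0.73 on the log2 scale.

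Blm, a helicase that dissolves recombination intermediates, had the greatest fall of the 38 genes at 24 h. NaCl/D5W rats at 24 h read 10.67, 10.70, 10.81 and 10.81, and topotecan/oxaliplatin rats 8.17, 8.24, 8.30 and 8.43. All treated rats lay below all vehicle rats, and the change was -2.46 (SE 0.12), 5.5-fold, at a limma adjusted p of 9.12e-19. Blm fell in every treatment at 24 h, by 1.45 with topotecan/D5W, 1.72 with D5W/topotecan, 1.76 with oxaliplatin/NaCl, 2.01 with NaCl/oxaliplatin and 2.29 with oxaliplatin/topotecan. It was the only member of the pathway whose change with topotecan was smaller at 6 h (-0.45 to -0.81) than at 1 h (-0.65 to -1.09) in all 4 treatments, a difference that was not tested.

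Rad51c belongs to a family of recombination mediators that act on single-stranded DNA. Its NaCl/D5W rats at 24 h read 9.33, 9.51, 9.53 and 9.67, against 7.22, 7.25, 7.28 and 7.46 with topotecan/oxaliplatin, again without overlap. The change was -2.21 (SE 0.14, limma adjusted p 3.59e-16), and it was -2.05 with oxaliplatin/NaCl and -2.23 with NaCl/oxaliplatin alone. With topotecan alone it was -1.55 and -1.82. Rad54l, a motor protein of strand exchange, behaved otherwise: it fell by 1.75 and 1.82 with the combinations and by 0.85 to 1.18 with single drugs. D5W/NaCl rats at 24 h read 9.38, 9.81 and 9.85 for Rad54l and oxaliplatin/topotecan rats 7.76, 7.82, 7.85 and 8.03, below every vehicle rat (SE 0.15, limma adjusted p 8.09e-13).

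Among the mediators of strand exchange, Brca1 fell at 24 h by 0.90 to 1.43 in the 6 treatments, and Brca2, a mediator that acts on single-stranded DNA, by 0.51 to 0.73 in the 4 with oxaliplatin. Brca2 with topotecan alone read -0.39 and -0.38 at 24 h, short of the threshold. Rad51ap1, which stimulates strand invasion, showed no call at 1 h, fell at 6 h with topotecan (-0.60 to -0.87) and at 24 h throughout (-0.95 to -1.66). It was called higher at 1 h with oxaliplatin/topotecan (0.41) after the second quantile normalization. Rad50, part of the complex that senses and trims broken ends, was lower in all 6 treatments at 6 h by the probe set used here (-0.50 to -0.90). At 24 h this probe set read -0.17 and -0.14 with topotecan alone, neither called, and -0.36 to -0.53 in the other treatments. The further probe set of Rad50 was not called with oxaliplatin alone at 6 h (-0.45 and -0.32) but was called lower with topotecan alone at 24 h (-0.45 and -0.62), so these calls of Rad50 depend on the probe set. Rad52, an annealing protein, and Xrcc2 and Xrcc3, of the same mediator family as Rad51c, had 24 h changes of -0.66 to -1.29, -0.57 to -1.55 and -0.23 to -0.54. The calls of Brca1 at 6 h with topotecan alone, of Rad52 at 24 h with topotecan/D5W, of Brca2 and Rad50 at 24 h with oxaliplatin/NaCl and of Xrcc3 at 24 h with oxaliplatin/NaCl and oxaliplatin/topotecan were each lost without 1 or more rats.

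**Figure D3:**
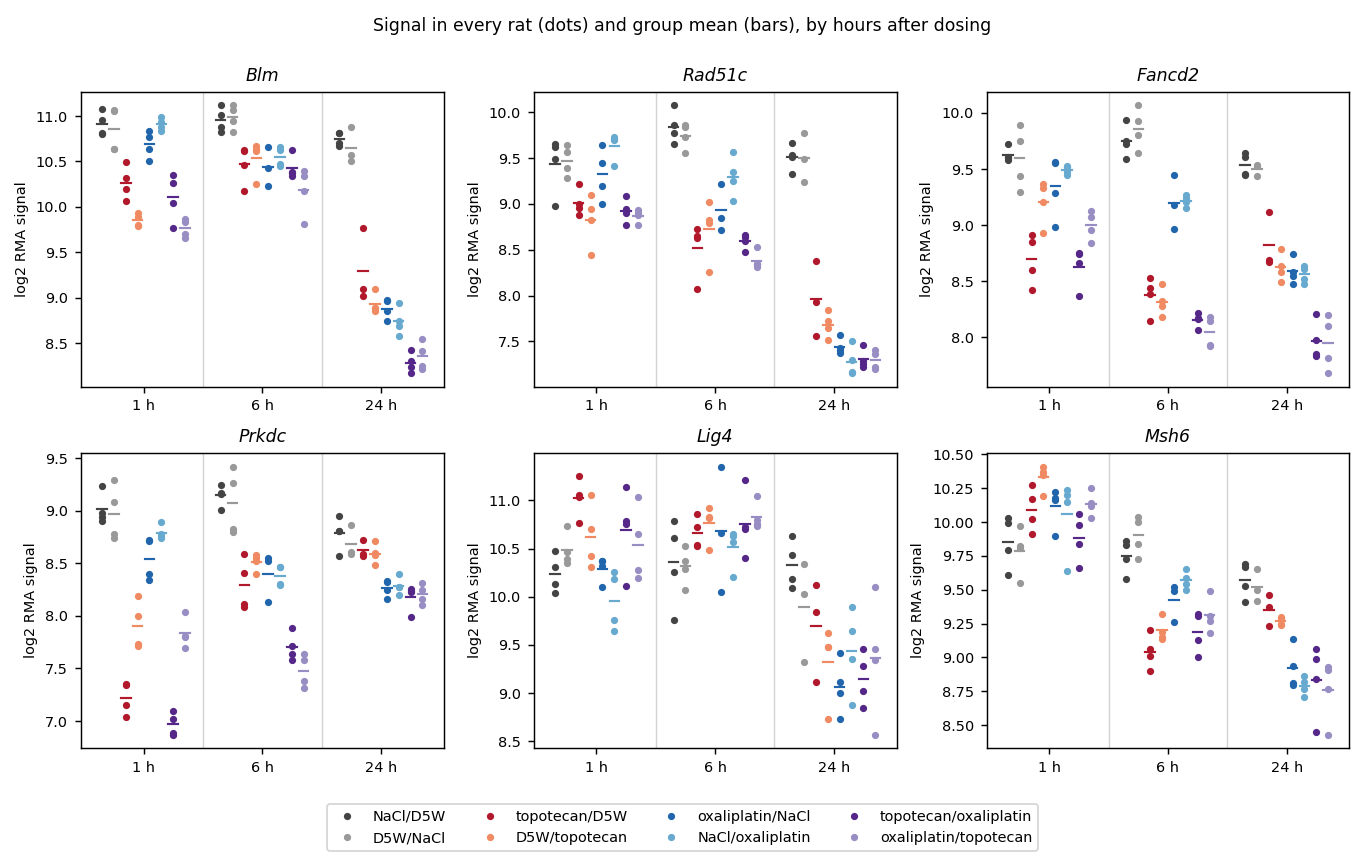
Log2 RMA signal of selected repair genes in every rat (dots) with group means (bars), for the vehicle groups and 6 treatments at 1, 6 and 24 h after dosing. Blm and Rad51c reach their lowest values at 24 h, where the topotecan/oxaliplatin rats read 8.17 to 8.43 and 7.22 to 7.46, and Prkdc its lowest at 1 h, where these rats read 6.87 to 7.10.

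In the Fanconi anaemia pathway, a core complex that includes Fanca, Fancb and the ligase Fancl adds ubiquitin to Fancd2, which then directs the unhooking of the cross-link. The 4 genes were lower in 7 of 24 pairs at 1 h and in 19 at both later times. The 7 at 1 h were all with topotecan, 43.8% of those pairs against 19.5 to 32.9% of all probe sets. At 6 h all 16 pairs with topotecan were lower, against 3 of 8 with oxaliplatin alone, and at 24 h the numbers were 12 of 16 and 7 of 8. Fancd2 moved most: D5W/NaCl rats at 6 h read 9.64, 9.80, 9.93 and 10.07, and oxaliplatin/topotecan rats 7.92, 7.93, 8.15 and 8.18. The groups did not overlap, and the change was -1.81 (SE 0.13, limma adjusted p 5.09e-14), 3.51-fold. With topotecan alone it fell by 1.38 and 1.54 at 6 h and by 0.71 and 0.88 at 24 h, beside -0.91 and -0.98 with oxaliplatin alone at 24 h. Fanca was lower at 24 h in all 6 treatments (-0.42 to -0.69), though 3 of these calls, with topotecan/D5W, D5W/topotecan and oxaliplatin/NaCl, were lost without 1 or more rats. Fancb was called at 24 h only with NaCl/oxaliplatin (-0.56) and the combinations (-0.96 and -0.95), and Fancl with every treatment but topotecan alone (-0.52 to -0.64), where the -0.52 of topotecan/oxaliplatin was lost without any of 3 rats.

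Non-homologous end joining starts with the Ku pair (Xrcc5 and Xrcc6), which holds a broken end and recruits the kinase Prkdc, and ends with ligation by Xrcc4 and Lig4. The pathway's median change at 1 h ran from -0.95 to -0.09 over the treatments, and it gave 11 lower and 1 higher of 30 pairs at 1 h, 16 lower at 6 h and 18 lower at 24 h. All 11 lower pairs at 1 h were among the 20 with topotecan, 55% of them, against 19.5 to 32.9% of all probe sets. Prkdc in NaCl/D5W rats at 1 h read 8.90, 8.94, 8.98 and 9.23, and with topotecan/oxaliplatin 6.87, 6.89, 7.02 and 7.10. The ranges lay far apart, with a change of -2.04 (SE 0.10, limma adjusted p 6.22e-20) or 4.12-fold, which was the greatest fall of any of the 38 genes at 1 h. Prkdc fell by 1.80 with topotecan/D5W and by 1.07 and 1.14 where topotecan came second. At 24 h it read -0.16 and -0.09 with topotecan alone, neither called, and -0.42 to -0.60 in the other treatments. The -0.42 of oxaliplatin/NaCl was lost without any of 7 rats, and the -0.48 of oxaliplatin/topotecan without 1.

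Xrcc4, the scaffold of the ligase, read 7.11, 7.18, 7.19 and 7.34 in NaCl/D5W rats at 1 h and 5.85, 5.88, 6.01 and 6.16 with topotecan/D5W. It fell by 1.23 (SE 0.10, limma adjusted p 3.28e-13) with no overlap of rats, and by 0.74, 1.09 and 0.86 in the other treatments with topotecan. Lig4, its partner, went up in the same comparison. Its NaCl/D5W rats read 10.04, 10.13, 10.31 and 10.47 and its topotecan/D5W rats 10.76, 11.03, 11.05 and 11.25, all above the vehicle rats, for a change of 0.78 (SE 0.22, limma adjusted p 0.00373). This call was lost without any of 3 rats, with changes of 0.71 to 0.75. In the other treatments Lig4 at 1 h read between -0.28 and 0.45 with no call, and at 24 h it was lower with oxaliplatin/NaCl (-0.83, lost without any of 5 rats), NaCl/oxaliplatin (-0.89) and topotecan/oxaliplatin (-1.18).

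The calls of the Ku genes are given apart, and the difference between them was not tested. Xrcc5 at 1 h was lower where topotecan came first, by 0.81 with topotecan/D5W and by 0.95 with topotecan/oxaliplatin, where rats read 8.13, 8.15, 8.43 and 8.46 against 9.10, 9.21, 9.28 and 9.36 in NaCl/D5W (SE 0.12, limma adjusted p 1.64e-08). With topotecan second it read -0.24 and -0.35 with no call. The test of infusion order, given further on, did not call Xrcc5. At 6 h it was lower in both combinations, by 0.44 with topotecan/oxaliplatin, a call lost without either of 2 rats, and by 0.60 with oxaliplatin/topotecan. At 24 h it lay between -0.20 and 0.12 in all treatments with no call. Xrcc6 was lower at 1 h only with topotecan/oxaliplatin (-0.37), at 6 h in the 4 treatments with topotecan (-0.68 to -0.78) and at 24 h in all 6 (-0.33 to -1.19). The -0.33 of topotecan/D5W was lost without any of 4 rats. Xrcc6 was called higher at 1 h with D5W/topotecan (0.43) after the second quantile normalization.

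Mismatch repair removes wrong bases left by replication. Its MutS alpha and MutS beta complexes hold Msh6 and Msh3, and Exo1 then digests the strand. The 3 genes were lower in 5 of 18 pairs at 1 h, where 2 were higher, in 16 at 6 h and in 14 at 24 h, and with topotecan in 12 of 12 at 6 h. The 5 at 1 h were all with topotecan, 41.7% of those pairs against 19.5 to 32.9% of all probe sets. Msh3 fell at 1 h by 1.60 with topotecan/D5W, and by 1.88 with topotecan/oxaliplatin (SE 0.21, limma adjusted p 9.32e-10), where rats read 5.05, 5.58, 5.71 and 5.96 against a wide 6.94, 7.16, 7.76 and 7.96 in NaCl/D5W. With topotecan second it fell by 0.87 and 1.05. At 6 h it was lower in all 6 treatments (-0.75 to -1.90), at 24 h in the 4 with oxaliplatin (-0.79 to -1.08), and with topotecan alone it then read -0.37 and -0.41 without a call.

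Msh6 and Msh3 moved in opposite directions at 1 h where topotecan came second. Msh6, whose promoter holds the E2F match shown above, read 9.55, 9.81, 9.82 and 9.97 in D5W/NaCl rats at 1 h and 10.19, 10.35, 10.37 and 10.41 with D5W/topotecan. All treated rats lay above the vehicle rats, with a rise of 0.54 (SE 0.10, limma adjusted p 3.29e-05). It rose by 0.35 with oxaliplatin/topotecan, a call lost without either of 2 rats, and read 0.24 and 0.03 where topotecan came first. After the second quantile normalization Msh6 was also called higher with topotecan/D5W (0.35). The test of infusion order, given further on, did not call Msh6. By 6 h it was lower in all treatments but NaCl/oxaliplatin (-0.48 to -0.71), and at 24 h lower in the 4 with oxaliplatin (-0.60 to -0.78) and at -0.22 and -0.25 with topotecan alone. Exo1, with paired CCAAT boxes, was lower at 1 h only with topotecan/oxaliplatin (-0.57, lost without animal 49) and at 24 h in all 6 treatments, by 0.57 (lost without any of 3 rats) and 0.79 with topotecan alone, and its changes in the others were -1.26 to -1.90. D5W/NaCl rats at 24 h read 8.69, 8.94 and 8.97 for Exo1, and oxaliplatin/topotecan rats 6.54, 6.88, 7.08 and 7.39, all lower (SE 0.15, limma adjusted p 3.28e-13).

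Repair of single-strand breaks and of trapped topoisomerase uses Parp1 and Parp2 to mark the break, Xrcc1 and Lig3 to join it, Tdp1 to cut topoisomerase I from the 3' end and Tdp2 to cut topoisomerase II from the 5' end, while Lig1 joins nicks during replication. The 7 genes were lower in 12 of 42 pairs at 1 h, 26 at 6 h and 20 at 24 h. Their median change at 24 h lay between -0.63 and 0.01, with the genes of the pathway far apart from each other. Lig1 was lower in all treatments at both later times. Its NaCl/D5W rats at 24 h read 10.56, 10.57, 10.59 and 10.64, and with topotecan/oxaliplatin 9.06, 9.07, 9.09 and 9.40. These groups did not overlap, with a fall of 1.43 (SE 0.09, limma adjusted p 8.47e-17).

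Tdp1, the enzyme that acts on the lesion of topotecan, was lower at 1 h in all topotecan treatments but D5W/topotecan (-0.31, not called), lower at 6 h in all 4, and near vehicle at 24 h with topotecan alone. The -0.42 of oxaliplatin/topotecan at 1 h was lost without any of 4 rats. At 6 h D5W/NaCl rats read 8.69, 9.00, 9.27 and 9.57 and oxaliplatin/topotecan rats 7.72, 7.77, 7.86 and 7.91, below all of them, a fall of 1.32 (SE 0.13, limma adjusted p 3.98e-11). With topotecan alone Tdp1 changed by -0.82 and -1.07 at 6 h, and at 24 h its differences from vehicle were 0.22 and 0.00, while the combinations gave -0.32 (lost without any of 5 rats) and -0.63. With oxaliplatin alone no time gave a call (-0.13 to -0.40). Tdp2 had no call in any of the 18 comparisons. Its topotecan/oxaliplatin rats at 24 h read 7.50, 7.65, 7.68 and 8.18, and its NaCl/D5W rats 7.61, 7.76, 7.82 and 7.97, which overlap (change -0.04, SE 0.14, limma adjusted p 0.82). Under the second quantile normalization Tdp2 was called higher at 1 h with D5W/topotecan (0.50) and oxaliplatin/topotecan (0.36).

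Parp1 was lower in all 4 topotecan treatments at 1 h (-0.41 to -0.76) and in all 6 treatments at 6 and 24 h. At 6 h D5W/NaCl rats read 11.22, 11.23, 11.42 and 11.50, and oxaliplatin/topotecan rats 10.17, 10.24, 10.27 and 10.36, without overlap (change -1.08, SE 0.09, limma adjusted p 3.64e-13). At 24 h Parp1 read -0.35 and -0.37 with topotecan alone, both calls lost without 1 or more rats, and -0.83 to -0.94 in the other 4 treatments. Parp2 likewise read -0.33 (not called) and -0.63 with topotecan alone and -0.71 to -1.18 in the others. Xrcc1, the scaffold of the pathway, was lower only at 6 h and only in the 4 treatments with topotecan. Its NaCl/D5W rats then read 9.20, 9.34, 9.41 and 9.65 and its topotecan/oxaliplatin rats 8.40, 8.77, 8.80 and 8.86, a fall of 0.70 (SE 0.10, limma adjusted p 1.40e-07) without overlap, while at 24 h its changes lay between 0.00 and 0.18. Lig3 was called only once, at 24 h with topotecan/oxaliplatin (-0.39).

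Nucleotide excision repair, which removes platinum adducts from a single strand, had 3 genes in the table: Xpa, which verifies the lesion, Rad23b, a partner of the damage sensor Xpc, and Ercc3, a helicase of the transcription factor TFIIH. They were lower in 8 of 18 pairs at 1 h, 2 at 6 h and 6 at 24 h, and higher in 2 at 6 h, with a median change at 24 h between -0.27 and 0.04. At 6 h with topotecan 20.4 to 27.6% of all probe sets were lower, and at 24 h 17.3 to 35.2% over the treatments. The 6 and 24 h counts lay near or below these shares. Of 10 further measured genes of the pathway 6 to 8 were lower at 6 h with topotecan and 1 and 3 with oxaliplatin alone. At 24 h these were 3 and 3 with topotecan alone, 6 and 7 with oxaliplatin alone and 8 and 10 with the combinations. Ercc3 at 6 h read 10.73, 10.85, 10.90 and 11.00 in NaCl/D5W rats and 11.09, 11.16, 11.21 and 11.30 with topotecan/oxaliplatin, above all vehicle rats but by 0.32 (SE 0.07, limma adjusted p 3.27e-04), 1.25-fold. Its rise of 0.27 with D5W/topotecan was lost without any of 4 rats. After the second quantile normalization Ercc3 was called higher at 6 h in all 4 treatments with topotecan (0.25 to 0.41). At 1 h it was lower by 0.27 to 0.41 in 3 treatments with topotecan, and the -0.27 of oxaliplatin/topotecan was lost without any of 6 rats. Rad23b was lower at 1 h in the same 3 treatments, by 0.62, 0.64 and 0.38. A further probe set of Rad23b gave a different picture at 24 h, with -1.08 for topotecan/oxaliplatin and -0.90 for oxaliplatin/NaCl where the one used here gave -0.16 and -0.21, so the level of this gene at 24 h is uncertain. Over the 5 genes with a further probe set (Lig1, Lig3, Lig4, Rad23b and Rad50), 10 of 90 comparisons differed in call between the probe sets, and 0 were called in opposite directions. Xpa was lower at 24 h in the 4 treatments with oxaliplatin (-0.44 to -0.65), with 3 of these 4 calls lost without 1 or more rats.

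Rad18, the ubiquitin ligase that starts bypass of damage at stalled forks, was lower in all 4 topotecan treatments at 1 h and in all 6 treatments at both later times. NaCl/D5W rats at 1 h read 9.58, 9.70, 9.70 and 9.86, and topotecan/oxaliplatin rats 8.03, 8.06, 8.39 and 8.58, well below them, a fall of 1.45 (SE 0.12, limma adjusted p 7.75e-13). With oxaliplatin alone it read 0.02 and 0.04 at 1 h and fell by 0.51 in both orders at 6 h, calls that were lost without 1 or more rats, and by 0.95 and 0.96 at 24 h. Rad1, part of the clamp that activates the ATR kinase, read 9.63, 9.82, 9.97 and 9.99 in NaCl/D5W rats at 6 h and 8.70, 8.71, 8.76 and 8.87 with topotecan/oxaliplatin, all lower, by 1.09 (SE 0.11, limma adjusted p 3.34e-11). Rad17, which loads that clamp, fell at 6 h by 0.41 to 0.52 with topotecan and at 24 h by 0.44 to 0.77 in 5 treatments. Its 6 h calls with D5W/topotecan (-0.41) and oxaliplatin/topotecan (-0.43) were lost without any of 7 and of 4 rats. Its 24 h calls with D5W/topotecan (-0.44) and oxaliplatin/NaCl (-0.48) were lost without any of 6 and of 4 rats.

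The 3 genes placed apart also fell. Ercc6l is a DNA translocase that acts on chromatin bridges in mitosis, and it had no call at 1 h, was lower at 6 h with topotecan (-0.87 to -1.07) and lower at 24 h in all 6 treatments (-0.74 to -1.84). D5W/NaCl rats at 24 h read 8.59, 8.59 and 9.00, and oxaliplatin/topotecan rats 6.55, 6.93, 6.97 and 7.10, without overlap (SE 0.19, limma adjusted p 8.35e-11). Rad21, the cohesin subunit that holds sister chromatids, was lower in the 4 topotecan treatments at 1 h (-0.30 to -0.67) and in all 6 at 24 h (-0.53 to -1.15). The -0.30 of topotecan/D5W at 1 h was lost without any of 3 rats. Ercc6l2 was lower at 1 h with topotecan (-0.62 to -0.88) and nearer vehicle at 24 h (-0.04 to -0.32).

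**Figure D4:**
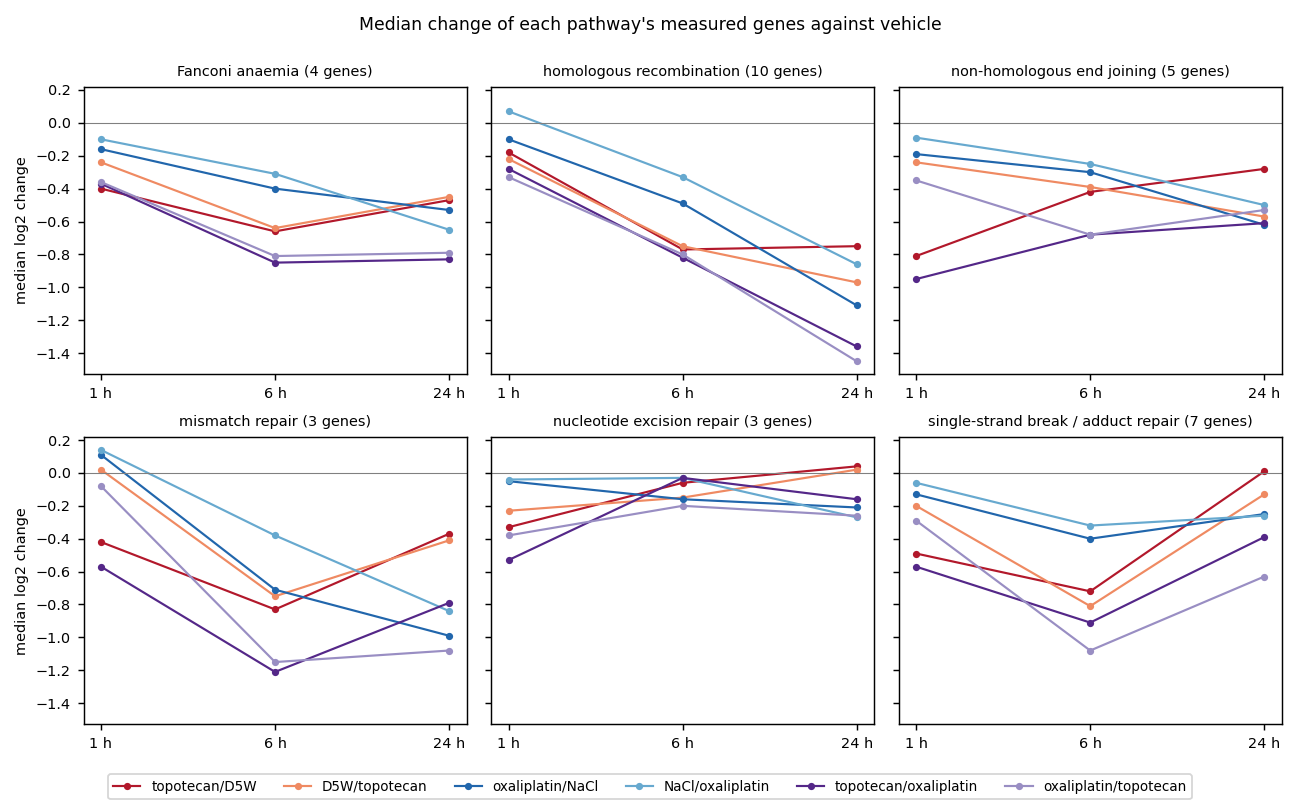
Median log2 change against vehicle of the measured genes of each pathway (panels, with the number of genes) at 1, 6 and 24 h, 1 line per treatment. The lines of homologous recombination end between -1.45 and -0.75 at 24 h, their lowest point except with topotecan/D5W (-0.77 at 6 h, -0.75 at 24 h). The lines of nucleotide excision repair end between -0.27 and 0.04, and those of end joining start as low as -0.95 at 1 h.

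Across the pathways, 10 genes were lower in all 6 treatments at 6 h (Fancd2, Rad50, Rad51c, Prkdc, Msh3, Lig1, Parp1, Parp2, Rad18 and Rad21) and 16 at 24 h (Fanca, Fancd2, Blm, Brca1, Rad51ap1, Rad51c, Rad52, Rad54l, Xrcc2, Xrcc6, Exo1, Lig1, Parp1, Rad18, Ercc6l and Rad21). At 1 h 8 genes were lower in all 4 topotecan treatments (Blm, Prkdc, Xrcc4, Msh3, Parp1, Rad18, Ercc6l2 and Rad21). Genes with no lower call in any treatment numbered 12 at 1 h, 5 at 6 h (Lig4, Ercc3, Rad23b, Lig3 and Tdp2) and 4 at 24 h (Xrcc5, Ercc3, Tdp2 and Xrcc1). How many of all probe sets meet these rules was not counted, so the sets are lists and not a result about repair genes. Prkdc, Msh3 and Parp2 belonged to the set at 6 h but not to that at 24 h, with the missing calls all among the topotecan-alone groups. For Rad50 membership of either set depends on the probe set, as given above. At 6 h Fancd2, Rad51c, Prkdc, Msh3, Rad18 and Rad21 each held a call with oxaliplatin alone that was lost without 1 or more rats. For Rad21 with NaCl/oxaliplatin this held for any of 7 rats, and for Rad51c for any of 4. At 24 h Fanca, Rad52, Xrcc6, Exo1 and Parp1 held calls lost without 1 or more rats, as did Rad21 at 1 h.

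At 1 h the greatest falls were in long genes. Among the 38 genes only Ercc6l2 (267 kb), Xrcc4 (246 kb), Prkdc (218 kb) and Msh3 (141 kb) span more than 100 kb from start to end in RefSeq (GRCr8), and all 4 were among the 8 genes just named for 1 h. Over the 38 genes the span and the log2 change at 1 h had a Spearman rho of -0.78 with topotecan/D5W, -0.77 with D5W/topotecan, -0.74 with topotecan/oxaliplatin and -0.70 with oxaliplatin/topotecan. With oxaliplatin alone it was -0.43 and -0.29. Over the 7791 genes of the array with a span the values were -0.41, -0.62, -0.46, -0.60, -0.35 and -0.25 in the same order of treatments, of the same sign as for the repair genes. At 6 h rho over the 38 genes lay between -0.35 and 0.11 and at 24 h between 0.03 and 0.17. The shortest spans were those of Tdp2 (11.4 kb), Xrcc3 (10.3 kb), Lig4 (8.59 kb) and Rad1 (8.11 kb), and of these Rad1 was the only one called lower at 1 h. These correlations are across genes, which share the same rats and arrays and are not replicates, and they are given as a description.

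**Figure D5:**
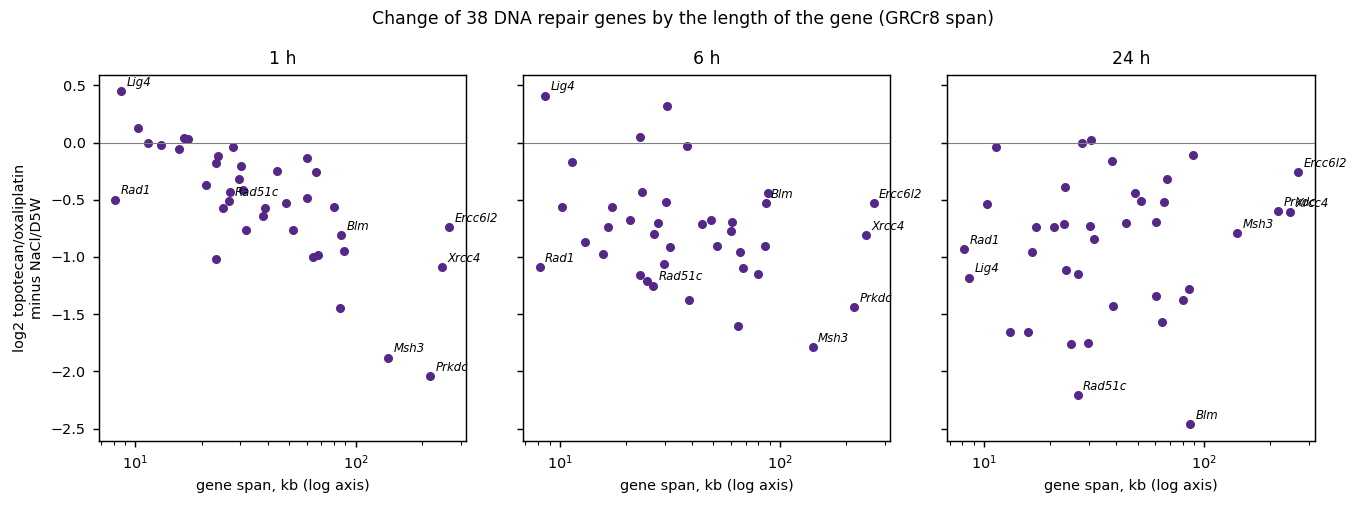
Log2 change of the 38 repair genes with topotecan/oxaliplatin against NaCl/D5W (vertical) by the genomic span of the gene in kb (log axis) at 1, 6 and 24 h, 1 dot per gene. At 1 h the dots slope down to Prkdc (218 kb, -2.04), with a Spearman rho of -0.74, and at 24 h no slope is seen.

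The drugs were also set against each other directly, within the groups that share a vehicle group. At 1 h topotecan/D5W against NaCl/oxaliplatin called 21 of the 38 genes, 20 of them lower with topotecan, beside 32.8% of all probe sets called in either direction. The exception was Lig4, higher by 1.06. At 6 h 17 genes were lower with topotecan (14.0% of all called), led by Exo1 (-0.89), Fancd2 (-0.84) and Xrcc2 (-0.83). At 24 h 12 genes were higher with topotecan than with oxaliplatin (17.9% of all called), among them Exo1 by 0.84, Rad51c by 0.68, Parp1 by 0.59 and Parp2 by 0.57. Without animal 35 of topotecan/D5W only 3 of the 12 were called, Exo1, Parp1 and Parp2.

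D5W/topotecan against oxaliplatin/NaCl gave fewer calls. At 1 h 8 genes were lower with topotecan (19.0% of all called), led by Brca1 (-1.11), Blm (-0.84) and Rad18 (-0.83). At 6 h the 3 called genes were lower with topotecan, Fancd2 by 0.88, Tdp1 by 0.67 and Xrcc1 by 0.49 (4.72% of all called), and 1 was called without animal 45 of oxaliplatin/NaCl. At 24 h Parp1 was 0.52 and Parp2 0.48 higher with topotecan and Rad21 0.34 lower (8.21% of all called). The higher Parp1 and Parp2 at 24 h were thus called in both pairs of single drugs. For D5W/topotecan against oxaliplatin/NaCl the 8 genes at 1 h and the 3 at 24 h lay near the shares of all probe sets.

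Each combination was then compared with its single drugs, which share rats with the comparisons above. Adding oxaliplatin to topotecan made no call at 1 h by limma, with 5 genes at an unadjusted p under 0.05 for topotecan/oxaliplatin against topotecan/D5W (0% of all called) and 8 for oxaliplatin/topotecan against D5W/topotecan (0.239% of all). At 6 h it lowered Prkdc by 0.60 and Msh3 by 0.97 in the first pair (1.32% of all), of which 1 call was left without animal 28 of topotecan/D5W. In the other pair Prkdc was lower by 1.04, Msh3 by 1.14 and Xrcc4 by 0.55 (4.09% of all), the last a call lost without any of 7 of the 8 rats. At 24 h 23 genes were lower in topotecan/oxaliplatin than in topotecan/D5W (29.6% of all), 15 without animal 35 of topotecan/D5W, with Exo1 at -1.20, Blm at -1.01, Ercc6l at -0.91, Rad54l at -0.89 and Fancd2 at -0.86. In oxaliplatin/topotecan 19 were lower than in D5W/topotecan (16.8% of all), 13 without animal 95 of D5W/topotecan, again with Exo1 (-1.11) and Ercc6l (-0.93) first.

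Adding topotecan to oxaliplatin had its greatest counts early. Topotecan/oxaliplatin against NaCl/oxaliplatin called 24 genes at 1 h (39.0% of all), of which Lig4 was higher by 0.73, 24 at 6 h (17.0% of all) and 6 at 24 h (15.9% of all). Those 6, all lower, were Fancd2, Blm, Rad51ap1, Rad54l, Xrcc2 and Rad21 (-0.42 to -0.71), and 4 were called without animal 83 of NaCl/oxaliplatin. The count of 6 at 24 h lay near the share of all probe sets. Oxaliplatin/topotecan against oxaliplatin/NaCl called 13 at 1 h (26.3% of all), 15 at 6 h (13.4% of all, and 8 genes without animal 45 of oxaliplatin/NaCl) and 9 at 24 h (5.93% of all, and 5 genes without animal 47 of oxaliplatin/NaCl), all lower. The count of 13 at 1 h lay near the share of all probe sets. At 24 h the 9 held Fancd2 (-0.64), Rad54l (-0.64), Xrcc2 (-0.64), Blm (-0.52) and Rad21 (-0.56).

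The order of infusion was tested as a difference between changes from vehicle, topotecan first minus topotecan second. At 1 h 5 genes differed for topotecan alone (12.2% of all probe sets called): Prkdc by -0.73 (SE 0.16, limma adjusted p 4.70e-04), Tdp1 by -0.66, Parp2 by -0.57, Xrcc6 by -0.53 and Rad23b by -0.39, all lower where topotecan came first. For the combination 3 differed (9.85% of all), Prkdc by -0.90 (SE 0.16, limma adjusted p 2.59e-05), Rad18 by -0.63 and Parp2 by -0.59. These 5 and 3 of 38 genes lay near the shares of all probe sets. The calls of Xrcc6, Rad23b and Rad18 were lost without 1 or more rats. For oxaliplatin alone limma called 0 at 1 h, with 6 at an unadjusted p under 0.05 (0% of all called). At 6 h it called 0 genes of the 38 for topotecan, oxaliplatin and the combination, with 1, 1 and 0 at an unadjusted p under 0.05 (0%, 0% and 0.00798% of all called), and at 24 h again 0, with 1, 0 and 4 (0%, 0% and 0% of all). For topotecan alone the code number of the labels differs between the orders, so code and order cannot be told apart, whereas at 1 and 6 h the combinations share their codes. Against their own vehicles at 1 h, 3 of 5 measured B cell genes were lower in both treatments with topotecan second (medians -0.83 and -1.09). In both with topotecan first 1 of 5 was lower (0.18 and 0.49). With topotecan/oxaliplatin 1 of the 5 was higher. Neither a difference of the B cell genes between the orders nor their part in the order values was tested.

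Changes from vehicle also differed between 24 and 1 h. The difference was called for 14 of the 38 genes with topotecan/D5W (33.6% of all), 8 higher and 6 lower at 24 h than at 1 h, and for 13 with D5W/topotecan (31.3% of all), 2 higher and 11 lower. Both counts lay near the share of all probe sets. The difference was called for 17 with oxaliplatin/NaCl (26.5% of all) and 26 with NaCl/oxaliplatin (43.0% of all), all lower. The combinations gave 25 with topotecan/oxaliplatin (46.8% of all), 8 higher and 17 lower, and 19 with oxaliplatin/topotecan (43.8% of all), 1 higher and 18 lower. The 19 of 38 with oxaliplatin/topotecan lay near the share of all probe sets as well. The 8 that came back toward vehicle where topotecan was first were Prkdc, Xrcc4, Xrcc5, Msh3, Ercc3, Rad23b, Tdp1 and Ercc6l2 in both treatments. With topotecan/D5W the difference between times was 1.64 for Prkdc, 1.23 for Msh3, 1.19 for Tdp1 and 0.95 for Xrcc4, and with topotecan/oxaliplatin 1.44, 1.09, 0.66 and 0.48. Prkdc was also higher at 24 h than at 1 h with D5W/topotecan (0.97) and oxaliplatin/topotecan (0.66). Of these calls, the 0.48 of Xrcc4 was lost without any of 4 rats, the 0.66 of Prkdc without any of 3 and the 1.23 of Msh3 without animal 35 of topotecan/D5W.

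Other genes of the same pathways that the symbols do not cover, were taken from a list of general knowledge, and 57 were measured. With topotecan/D5W 25, 44 and 31 of 57 were lower at 1, 6 and 24 h, and with D5W/topotecan 14, 38 and 30. With oxaliplatin/NaCl the numbers were 0, 15 and 39 and with NaCl/oxaliplatin 0, 14 and 44, and the combinations gave 30, 43 and 44 (topotecan/oxaliplatin) and 18, 39 and 47 (oxaliplatin/topotecan). Of all probe sets, 26.0, 25.6 and 17.3% were lower at these times with topotecan/D5W, 19.5, 20.4 and 18.3% with D5W/topotecan, 32.9, 27.6 and 35.2% with topotecan/oxaliplatin and 27.6, 27.5 and 33.3% with oxaliplatin/topotecan. The 14 and 18 of 57 at 1 h where topotecan came second thus lay near the share of the array. With oxaliplatin/NaCl the shares were 0.654, 7.25 and 26.4%, and with NaCl/oxaliplatin 0.0239, 9.69 and 30.2%. Higher calls numbered 0 to 4 per comparison and were of Rpa2, Rmi1, Recql, Fen1, Aptx, Apex1, Neil1, H2ax, Mad2l2 and Ube2b. At 24 h falls of over 2-fold in all 6 treatments were found for Ube2t, the conjugating enzyme of the Fanconi step (-1.08 to -2.30), Nbn, a partner of Rad50 (-1.34 to -1.79), Clspn, which relays ATR signals to Chek1 (-1.32 to -1.81), and Mdc1, a scaffold at marked breaks (-1.12 to -1.75). Wrn, a helicase, and Mnat1, a TFIIH subunit, were low at 1 h with topotecan (-1.18 to -1.35 and -0.81 to -1.87). Neil1, a glycosylase for oxidised bases, was the one gene of this list higher by about 2-fold or more at 6 h with topotecan (0.98 to 1.27). Ube2b, which works with Rad18, rose at 6 h in the same 4 treatments by 0.39 to 0.68, where Rad18 itself fell.

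Genes of dividing cells and of marrow cell types moved in the same samples. All 22 measured mitosis genes were lower in the 4 topotecan treatments at 6 h (median changes -1.27 to -1.46) and in all 6 treatments at 24 h (-0.93 to -2.23), and 2 and 5 of 22 were lower with oxaliplatin alone at 6 h. The mean of these genes in vehicle rats at 24 h lay between 11.23 and 11.39, and in the combinations between 8.58 and 9.29. Of 17 replication genes 14 to 17 were lower at 6 h and 16 or 17 at 24 h (median changes -0.79 to -1.51), and at 1 h 12 were lower in both treatments with topotecan first, but 1 and 3 with topotecan second. Of 11 red cell genes 9 were lower at 24 h in each treatment, with a list mean of 12.05 to 12.54 in vehicle rats and 9.80 to 11.20 in treated rats. With oxaliplatin/NaCl, NaCl/oxaliplatin and oxaliplatin/topotecan 1 of the 11 was higher. Of 8 macrophage genes 7 or 8 were higher at 24 h, and of 7 T and NK cell genes 4 to 6. In each combination 1 of the 7 T and NK cell genes was lower. Granulocyte precursor genes, which should be high in marrow, had a mean of 13.20 to 13.55 over 6 genes in vehicle rats. At 24 h this mean was 13.29 to 13.48 in vehicle rats and 12.32 to 12.71 in the combinations, where 4 of 6 genes were lower with topotecan/oxaliplatin and 1 with oxaliplatin/topotecan. With oxaliplatin alone 2 and 3 of the 6 were higher at 24 h, and 1 was lower in each. Of 11 targets of p53 9 to 11 were higher at 1 h with topotecan, 9 with oxaliplatin/NaCl and 3 with NaCl/oxaliplatin. The part of these shifts in the repair gene values was not tested.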

How the data were processed

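Affymetrix rat expression arrays were normalized by the authors with RMA, which corrects background, equalizes the arrays by quantiles and summarizes each probe set on the log2 scale. These log2 signals, as deposited, had also passed the pvac filter of the authors, which drops a probe set if its probes do not share variation. Of 12560 probe sets, 28 controls were removed and 12532 tested. The values ran from 3.94 to 15.40 and the medians of the arrays from 8.79 to 9.30. Of the probe sets 79.8% have a single symbol in the array annotation, 292 have several and 2238 have none listed. The single symbols of all 38 genes were checked against RefSeq by gene ID.

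Linear models were fitted with lmFit and eBayes of limma (version 3.58.1, under R 4.3.3) and were checked on simulated arrays. The groups of each vehicle, NaCl/D5W or D5W/NaCl, at 3 times formed 1 fit, so 2 fits were made, and the order of infusion was tested with all 8 groups together. P-values were adjusted by Benjamini-Hochberg over the probe sets of a comparison, with 0.01 as the threshold. Differences between rats set the errors, as arrays have no read depth, and the number of rats limits the precision. Each rat gave 1 array and animal numbers are unique, so no samples were paired.

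The genes, pathways and lists were chosen with earlier results of these data known. Every gene matching the symbols could be named, and other pathway genes only if called in at least 3 treatments at a time in 1 direction by over 2-fold, or if called higher. Rats are printed for genes of great change at 24 h or with higher calls, and for others chosen after their values were seen. Within a group rats are listed from lowest to highest. Alternatives changed the normalization, probe set filter, variance prior, vehicle, threshold, fit, probe set and animal set, and left out arrays of high muscle signal or each rat in turn.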

Additional observations from a re-analysis of the deposited data

Results flagged for a closer look

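Lig1 in topotecan/oxaliplatin at 24 h had 1 rat at 9.40 while the other 3 read 9.06 to 9.09, a gap that stands out within the group's range. All 4 lay below the vehicle rats. Such a gap was found in 1 of 37 groups of 4 checked, and chance alone gives about 1 in 20.

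The change from vehicle differed between 24 and 1 h, by a test of that difference, for 14 of 38 genes with topotecan/D5W, 13 with D5W/topotecan, 17 with oxaliplatin/NaCl, 26 with NaCl/oxaliplatin, 25 with topotecan/oxaliplatin and 19 with oxaliplatin/topotecan. In the same order 33.6, 31.3, 26.5, 43.0, 46.8 and 43.8% of all probe sets were called. The counts with topotecan alone and with oxaliplatin/topotecan lay near that share.

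The change at 1 h differed with the order of infusion for Prkdc (-0.73), Tdp1 (-0.66), Parp2 (-0.57), Xrcc6 (-0.53) and Rad23b (-0.39) with topotecan alone, and for Prkdc (-0.90), Rad18 (-0.63) and Parp2 (-0.59) with the combination, each as the log2 change with topotecan first minus that with topotecan second. Of all probe sets 12.2% and 9.85% were called, and the 5 and 3 of 38 genes lay near these shares. The calls of Xrcc6, Rad23b and Rad18 were lost without 1 or more rats. For topotecan alone the code number of the labels and the order cannot be told apart. Order and time since topotecan cannot be told apart here.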

How the results depend on the processing

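No called repair gene changed direction against vehicle under any alternative. Of the 388 calls, 371 held after a second quantile normalization, 383 with all 8 groups in 1 fit, 386 with an intensity-trended prior, 387 with the vehicle groups pooled, 388 with a term within each time for the animal set (the first or the last 6 animal numbers of a treatment group) and 380 without the arrays of high muscle signal. The probe set of largest variance kept 386, and without the dimmest probe sets (a share of 0.25) all 285 calls of the genes left were kept. The set term also added 22 calls (17 to 23 genes for topotecan/D5W at 24 h, 12 to 16 for D5W/topotecan at 1 h), pooled vehicles 41, the second quantile normalization 26 and the single fit 13. No paired analysis was possible because each rat gave 1 array and animal numbers are not shared between groups.

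A required fold above 2, for which the share of all probe sets was not counted, left 107 calls. In the order topotecan/D5W, D5W/topotecan, topotecan/oxaliplatin and oxaliplatin/topotecan it left 4, 2, 5 and 3 at 1 h, 7, 7, 11 and 12 at 6 h and 2, 5, 14 and 16 at 24 h, and for oxaliplatin/NaCl and NaCl/oxaliplatin 1 and 1 at 6 h and 10 and 7 at 24 h. For topotecan against oxaliplatin it left 5, 0 and 0 of 29, 20 and 15 calls at 1, 6 and 24 h, for the combinations against single drugs 5, 4 and 3 of 37, 44 and 57, for order at 1 h 0 of 8 and for the change between times 50 of 114. Pooled vehicles gave 2 calls for oxaliplatin/NaCl at 1 h, 19 for NaCl/oxaliplatin at 6 h and 18 for order at 1 h. An adjusted p under 0.05 gave 22 for NaCl/oxaliplatin at 6 h, 26 for topotecan/D5W at 24 h, 16 for order at 1 h, and 33 and 25 for topotecan against oxaliplatin at 6 and 24 h. With each rat left out, oxaliplatin/NaCl at 6 h gave 7 to 16 (7 without animal 39) and topotecan against oxaliplatin at 24 h gave 6 to 16 (6 without animal 35 of topotecan/D5W). The cause was not tested.

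Groups of 3 or 4 rats limit the precision, with standard errors up to 0.27. Only 3 of 11 listed nucleotide excision repair genes had a probe set here, so the counts and medians of that pathway rest on few of its members. Counts of 10 further measured genes of the pathway are given with it above.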
